A study of Homo sapiens with 18 samples.

Results

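The 43 genes described here form the programme of ATF4, the transcription factor that cells use when amino acids run short or protein folding fails, together with the cytosolic tRNA synthetases that charge tRNAs with amino acids. The genes were taken by symbol from a list chosen with earlier results of these data known. All 43 were found among the 60656 gene rows of the count table. Shares of the set given below beside those of all genes are therefore descriptions, and the difference between them was not tested. By role they comprised 6 transcription factors, 7 feedback regulators and effectors, 10 enzymes of amino acid and one-carbon synthesis, 7 amino acid transporter genes and 13 tRNA synthetases. The study profiled 2 human breast cancer lines that carry the oestrogen receptor, CAMA-1 and ZR-75-1, by sequencing of mRNA 3′ ends. Parental, wild-type cells of each line were given abemaciclib at 500 nM, palbociclib at 500 nM or an equal volume of DMSO for 5 days, with 3 libraries in each of the 6 groups. Abemaciclib and palbociclib inhibit CDK4 and CDK6, the kinases that drive entry into the cell cycle. All groups were grown in RPMI medium with fetal bovine serum, HEPES and GlutaMax, a stable form of glutamine. Each line stands for 1 tumour only, and each group is 3 cultures of the same line.

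When amino acids are scarce, the kinase GCN2 senses uncharged tRNA and phosphorylates the initiation factor eIF2, and the kinase PERK does the same when unfolded protein builds up in the endoplasmic reticulum. Phosphorylated eIF2 slows general translation but raises translation of the ATF4 mRNA, so the amount of ATF4 protein is set largely after transcription and was not measured here. ATF4 pairs with C/EBP proteins such as CEBPG and binds C/EBP-ATF response elements to raise genes that make and import amino acids and charge tRNAs. It also raises its own brakes, among them TRIB3 and PPP1R15A. In dividing tumour cells several of these genes, such as those of serine synthesis and of the large neutral amino acid transporter, are known for supplying growth.

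The ATF4 binding element is short enough to read in the promoters. Its letters, TGATGNAA on either strand, were searched from 250 bases before to 50 bases after each annotated start in RefSeq promoter sequences of GRCh38.p14, where 35 of the 43 genes had a window. The element was present for 15 of these 35 genes (42.9%), against 4.46% of all 27305 genes with a window. Counted by window, the shares were 26.3% of 57 and 3.62% of 35116, since a gene can have several. The genes were chosen as the ATF4 programme, so a larger share follows from that choice and was not tested. Among the synthetases it was present for 7 of 10, and among the transporter genes for 4 of 6. The cAMP response element TGACGTCA, which reads the same on both strands, was present in 1 of the 35 genes, PPP1R15A, and in 2.25% of all genes. The elements of the 7 synthetases and of CEBPG, SLC1A4 and CHAC1 are shown because they let the element be compared between genes that behaved differently in the libraries. Each line gives 30 bases, 5′ to 3′ on the strand of the gene, with the match in capitals.
AARS1: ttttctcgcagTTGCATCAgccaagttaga
CARS1: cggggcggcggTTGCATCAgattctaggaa
GARS1: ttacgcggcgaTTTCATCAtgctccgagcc
IARS1: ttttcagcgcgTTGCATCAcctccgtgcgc
MARS1: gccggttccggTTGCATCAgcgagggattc
NARS1: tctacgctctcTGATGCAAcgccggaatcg
TARS1: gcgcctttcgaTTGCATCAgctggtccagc
CEBPG: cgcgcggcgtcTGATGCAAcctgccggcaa
SLC1A4: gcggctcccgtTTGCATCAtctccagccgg
CHAC1: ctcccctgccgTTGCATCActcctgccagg

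The AARS1 stretch is chr16:70289675-70289704 (minus strand), that of CARS1 chr11:3057407-3057436 (minus), that of GARS1 chr7:30594834-30594863 (plus), that of IARS1 chr9:92293692-92293721 (minus) and that of MARS1 chr12:57488053-57488082 (plus). The NARS1 stretch is chr18:57621804-57621833 (minus), that of TARS1 chr5:33440956-33440985 (plus), that of CEBPG chr19:33374060-33374089 (plus), that of SLC1A4 chr2:64989381-64989410 (plus) and that of CHAC1 chr15:40953251-40953280 (plus). In IARS1, MARS1, CARS1 and SLC1A4 the match began 13, 4, 2 and 7 bases before the start of transcription, and in TARS1 and NARS1 at bases 2 and 14 after it. ATF3, ASNS, SLC3A2, SLC7A1 and SLC1A5 held the remaining 5 matches. A match of letters is a description of the sequence and does not show that a protein binds it.

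The libraries held between 2308442 and 4146549 counts. In CAMA-1 11053 genes had enough counts to be tested, and 11017 did in ZR-75-1. Of the 43 genes, 37 were tested in CAMA-1 and 39 in ZR-75-1. All 7 luminal epithelial markers were present in both lines, whereas basal, immune and endothelial markers did not exceed 3 counts in any library, and of 4 fibroblast markers only COL1A1 did. MKI67, a gene of dividing cells, fell in all 4 comparisons with DMSO, by 9.63-fold with abemaciclib and 5.29-fold with palbociclib in CAMA-1 and by 59.0-fold and 2.56-fold in ZR-75-1. In CAMA-1 the share of mitochondrially encoded genes was 15.7% ± 0.866 with DMSO, against 24.8% ± 1.37 under abemaciclib and 23.6% ± 1.15 under palbociclib, and it lay between 18.5% and 22.6% in every ZR-75-1 library but 1, which stood at 17.3%. With these genes left out before scaling, every call in the 4 comparisons with DMSO was kept. Levels are given as normalised CPM, the counts of a gene relative to the total of its library, scaled within each line, with the SD over 3 libraries, and log2 fold changes with their SE. A gene was called where the Benjamini-Hochberg adjusted p of edgeR's quasi-likelihood test, over all genes tested, was under 0.05. Counts of RNA from whole cultures cannot tell fewer expressing cells from less RNA per cell.

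In ZR-75-1 most of the programme fell with either inhibitor. With abemaciclib 31 of the 39 genes tested were lower and 1, ATF5, was higher, beside 18.3% lower and 17.9% higher among all genes tested (36.2% in either direction). The fall was at least 2-fold in 17 of them, and the median log2 fold change of the 39 was -0.87. With palbociclib 27 were lower and 1, again ATF5, was higher, beside 13.4% and 14.5% of all genes (27.9% in either direction), and the median was -0.74. The 2 comparisons share their DMSO libraries.

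In CAMA-1 the calls went in both directions. With abemaciclib 16 of 37 were lower and 4 higher, beside 20.1% lower and 20.3% higher among all genes tested (40.3% in either direction), with a median of -0.19. With palbociclib 16 were lower and 4 higher, beside 18.7% and 18.4% (37.1% in either direction), with a median of -0.30. The medians over all genes tested lay between -0.01 and 0.01 in the 4 comparisons. Groups of libraries did not overlap for 32 of the 39 genes with abemaciclib in ZR-75-1, beside 45.8% of all genes, and for 23 of the 37 in CAMA-1, beside 48.1%. For palbociclib these numbers were 29 of 39 beside 39% and 23 of 37 beside 46%.

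**Figure D1:**
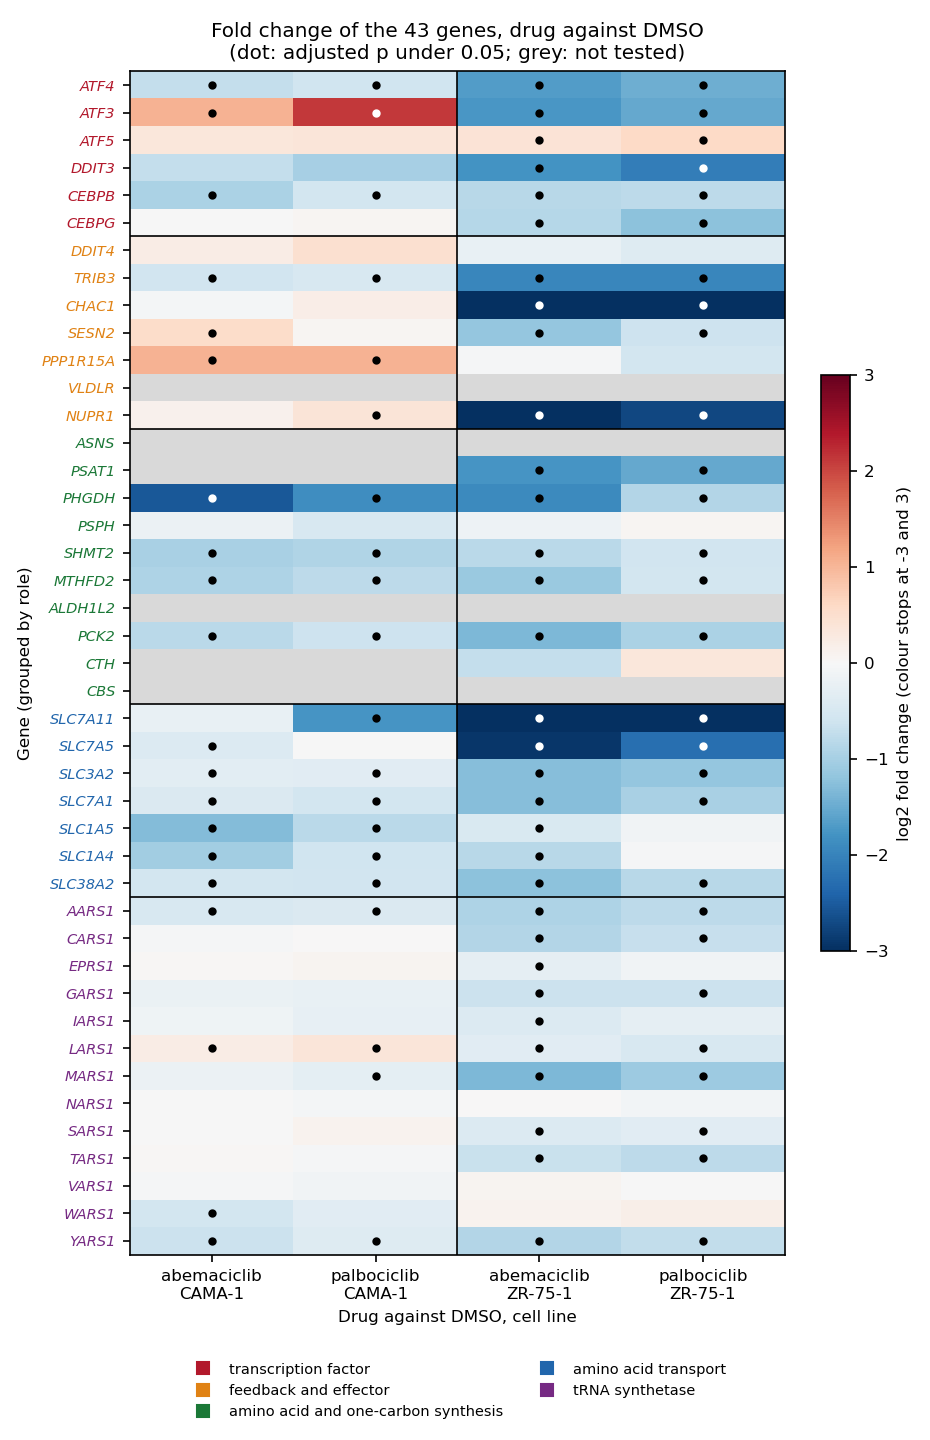
Log2 fold change of the 43 genes (rows, grouped by role) in the 4 comparisons of a drug with DMSO (columns), from blue for lower to red for higher. Dots mark adjusted p under 0.05 and grey cells were not tested. The 2 ZR-75-1 columns are blue in almost every tested row, with 31 and 27 genes called lower, and the CAMA-1 columns, with 16 each, also hold red rows at ATF3 and PPP1R15A.

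Lower in all 4 comparisons were 12 of the 37 genes tested in both lines, namely ATF4, CEBPB, TRIB3, PHGDH, SHMT2, MTHFD2, PCK2, SLC3A2, SLC7A1, SLC38A2, AARS1 and YARS1. None was higher in all 4. The share of all genes lower in all 4 was not computed. In the single comparisons between 13.4% and 20.1% of all genes tested were lower. Comparisons within a line share their DMSO libraries. ATF3, SESN2, NUPR1 and LARS1 were called in opposite directions in the 2 lines. DDIT4, PSPH, NARS1 and VARS1 were tested in both lines and called in no comparison with DMSO.

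ATF4 itself (ENSG00000128272.15, chr22:39519695-39522683, plus strand; gene spans here are from GENCODE on GRCh38) fell at the mRNA level in both lines. In ZR-75-1 it stood at 387, 295 and 308 with DMSO, 113, 96.1 and 99.5 with abemaciclib and 112, 131 and 115 with palbociclib. The CAMA-1 libraries held 298, 298 and 397 with DMSO, 205, 220.4 and 181 with abemaciclib and 232, 203 and 220.4 with palbociclib. Every drug library lay below every DMSO library of its line. The log2 fold changes were -1.68 ± 0.09 and -1.47 ± 0.09 in ZR-75-1 (adjusted p = 2.94e-22 and 5.91e-20) and -0.72 ± 0.09 and -0.61 ± 0.09 in CAMA-1 (adjusted p = 9.74e-09 and 3.71e-07). With DMSO the lines did not differ detectably in ATF4 (log2 difference 0.07 ± 0.09, 95% interval -0.11 to 0.25).

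ATF3, a stress-induced partner of the AP-1 and ATF factors (ENSG00000162772.17, chr1:212565334-212620777, plus strand), moved in opposite directions in the 2 lines. ZR-75-1 held 24.1, 25.3 and 27.4 with DMSO, 7.44, 6.43 and 9.25 with abemaciclib and 7.13, 9.92 and 9.53 with palbociclib. CAMA-1 held 1.66, 3.15 and 2.14 with DMSO, 5.61, 4.85 and 3.81 with abemaciclib and 8.06, 12.7 and 9.71 with palbociclib. Drug and DMSO libraries did not overlap in either line. ATF3 thus fell in ZR-75-1 (-1.73 ± 0.24 and -1.53 ± 0.23) and rose in CAMA-1 with palbociclib (2.13 ± 0.39, adjusted p = 1.81e-05). The rise in CAMA-1 with abemaciclib (1.05 ± 0.43) was a marginal call at adjusted p = 0.0487, from 5 to 21 reads a library. It was lost without DMSO replicate 1 or 3 or abemaciclib replicate 1 or 2 (adjusted p = 0.150, 0.120, 0.176 and 0.0815).

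CEBPG, the usual dimer partner of ATF4, whose promoter holds the element shown above, stood in ZR-75-1 at 33.7, 34.9 and 45.1 with DMSO, 16.2, 23.4 and 23.1 with abemaciclib and 10.7, 19.5 and 18.2 with palbociclib. The CAMA-1 groups, at 36.2, 39.6 and 38.2 with DMSO, 38.7, 37.9 and 36.2 with abemaciclib and 42.3, 36.5 and 38.8 with palbociclib, overlapped throughout. CEBPG fell in ZR-75-1 by 1.82-fold and 2.36-fold, and its log2 fold changes in CAMA-1 were -0.01 ± 0.14 and 0.05 ± 0.13 (adjusted p = 0.948 and 0.820). CEBPB, a C/EBP factor of inflammation and differentiation, fell in all 4 comparisons, with log2 fold changes between -0.95 and -0.54.

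DDIT3 encodes CHOP, a factor of the terminal stress response, and its 3′ end overlaps the 3′ end of MARS1 on the opposite strand, and its 5′ end overlaps MBD6, so reads could not be assigned with certainty because the strand setting of the counting is not given in the sources used here. ZR-75-1 held 20.5, 17.5 and 25.4 with DMSO, 4.85, 5.08 and 8.48 with abemaciclib and 4.94, 7.93 and 2.31 with palbociclib, and the drug libraries all lay below the DMSO libraries (-1.79 ± 0.30 and -2.08 ± 0.30). In CAMA-1 the levels were low, at 5.65, 3.85 and 3.09 with DMSO, 2.67, 2.65 and 2.22 with abemaciclib and 1.22, 2.32 and 2.77 with palbociclib, and the changes of -0.71 ± 0.48 and -1.004 ± 0.485 did not pass (adjusted p = 0.249 and 0.102). ATF5, a relative of ATF4 under the same translational control, was the only gene of the 43 to rise in ZR-75-1, by 1.34-fold with abemaciclib (adjusted p = 0.0103) and 1.51-fold with palbociclib (adjusted p = 2.71e-04). Without DMSO replicate 3 the former missed the threshold (adjusted p = 0.0569). In CAMA-1 its changes of 0.34 ± 0.16 and 0.35 ± 0.16 did not pass (adjusted p = 0.0841 and 0.0730). Both passed in 1 fit over all libraries (adjusted p = 0.0467 and 0.0383), and that with palbociclib passed without palbociclib replicate 3 (adjusted p = 0.0288). The 5′ end of ATF5 overlaps that of NUP62 on the opposite strand.

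Among the feedback and effector genes, TRIB3, CHAC1, SESN2 and NUPR1 fell in ZR-75-1 with both inhibitors. TRIB3, a pseudokinase that restrains ATF4, stood in ZR-75-1 at 83.1, 69.5 and 82.7 with DMSO, 22.3, 17.6 and 20.1 with abemaciclib and 17.0, 23.8 and 20.2 with palbociclib. CAMA-1 held 83.4, 76.3 and 71.5 with DMSO, 45.1, 46.7 and 63.2 with abemaciclib and 54.5, 55.9 and 53.7 with palbociclib. From like starting levels in the 2 lines, TRIB3 fell by 3.91-fold and 3.87-fold in ZR-75-1 (adjusted p = 2.38e-16 and 2.78e-16) and by 1.48-fold and 1.40-fold in CAMA-1 (adjusted p = 1.91e-04 and 9.64e-04).

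CHAC1, an enzyme that breaks down glutathione (ENSG00000128965.13, chr15:40952962-40956512, plus strand), started at a like level in the 2 lines. ZR-75-1 held 17.7, 11.1 and 20.3 with DMSO, 1.29, 3.72 and 0 with abemaciclib and 2.47, 1.65 and 0.866 with palbociclib, that is 37 to 60 reads a library with DMSO and 0 to 11 with a drug. CAMA-1 held 16.9, 21.7 and 15.2 with DMSO, 19.2, 18.5 and 13.3 with abemaciclib and 20.3, 21.4 and 19.8 with palbociclib. All drug libraries of ZR-75-1 lay below all its DMSO libraries, whereas the CAMA-1 groups overlapped. The log2 fold changes were -3.21 ± 0.45 and -3.25 ± 0.44 in ZR-75-1 (adjusted p = 4.55e-08 and 3.28e-08) and -0.06 ± 0.21 and 0.21 ± 0.20 in CAMA-1 (adjusted p = 0.845 and 0.447).

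NUPR1, a small stress-induced chromatin protein (ENSG00000176046.9, chr16:28532708-28539008, minus strand), had 609 to 1368 reads a library in CAMA-1 and 10 to 167 in ZR-75-1. CAMA-1 stood at 233, 217 and 267 with DMSO, 254, 268 and 268 with abemaciclib and 334, 284 and 326 with palbociclib. ZR-75-1 stood at 53.6, 37.3 and 36.9, 6.47, 5.42 and 3.86 and 4.66, 7.27 and 7.51 in the same order of treatments. It fell by 7.97-fold and 6.59-fold in ZR-75-1 (adjusted p = 1.87e-15 and 1.47e-14) and rose by 1.31-fold in CAMA-1 with palbociclib (adjusted p = 8.11e-05). With abemaciclib in CAMA-1 its change of 0.14 ± 0.08 did not pass (adjusted p = 0.181), and it passed without DMSO replicate 3 (0.23, adjusted p = 0.0198).

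SESN2, a stress protein that senses leucine, restrains mTORC1 and is also a p53 target, stood in ZR-75-1 at 114, 84.9 and 106 with DMSO, 45.0, 42.0 and 49.7 with abemaciclib and 66.1, 67.4 and 63.2 with palbociclib. The CAMA-1 values were 37.6, 36.1 and 42.0, 58.5, 58.6 and 54.6 and 33.7, 47.8 and 40.2. The fall in ZR-75-1 was -1.15 ± 0.12 with abemaciclib and -0.63 ± 0.11 with palbociclib. Its CAMA-1 level rose with abemaciclib (0.56 ± 0.13, adjusted p = 7.38e-04), every abemaciclib library lying above every DMSO library, and gave 0.06 ± 0.14 with palbociclib (adjusted p = 0.779).

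PPP1R15A encodes GADD34, the phosphatase subunit that removes the phosphate from eIF2 (ENSG00000087074.8, chr19:48872212-48876059, plus strand). CAMA-1 held 8.97, 12.3 and 11.6 with DMSO, 21.4, 27.8 and 20.3 with abemaciclib and 22.0, 23.7 and 22.2 with palbociclib, and ZR-75-1 held 8.67, 9.03 and 5.76, 5.82, 6.77 and 10.8 and 2.20, 5.95 and 8.09. It rose in CAMA-1 with both drugs, with no overlap of libraries (1.05 ± 0.21 and 1.04 ± 0.21, adjusted p = 6.64e-05 and 7.14e-05). The ZR-75-1 libraries overlapped, at -0.03 ± 0.36 and -0.55 ± 0.37 (adjusted p = 0.965 and 0.294). DDIT4, which encodes the mTORC1 inhibitor REDD1, was not called in any comparison with DMSO, with log2 fold changes from -0.39 to 0.47. Its value in CAMA-1 with palbociclib (0.47 ± 0.20, adjusted p = 0.0533) lay near the threshold. It passed under upper-quartile scaling, with mitochondrially encoded genes left out (adjusted p = 0.0495 and 0.0498) and without palbociclib replicate 2 (log2 fold change 0.64, adjusted p = 0.0124).

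**Figure D2:**
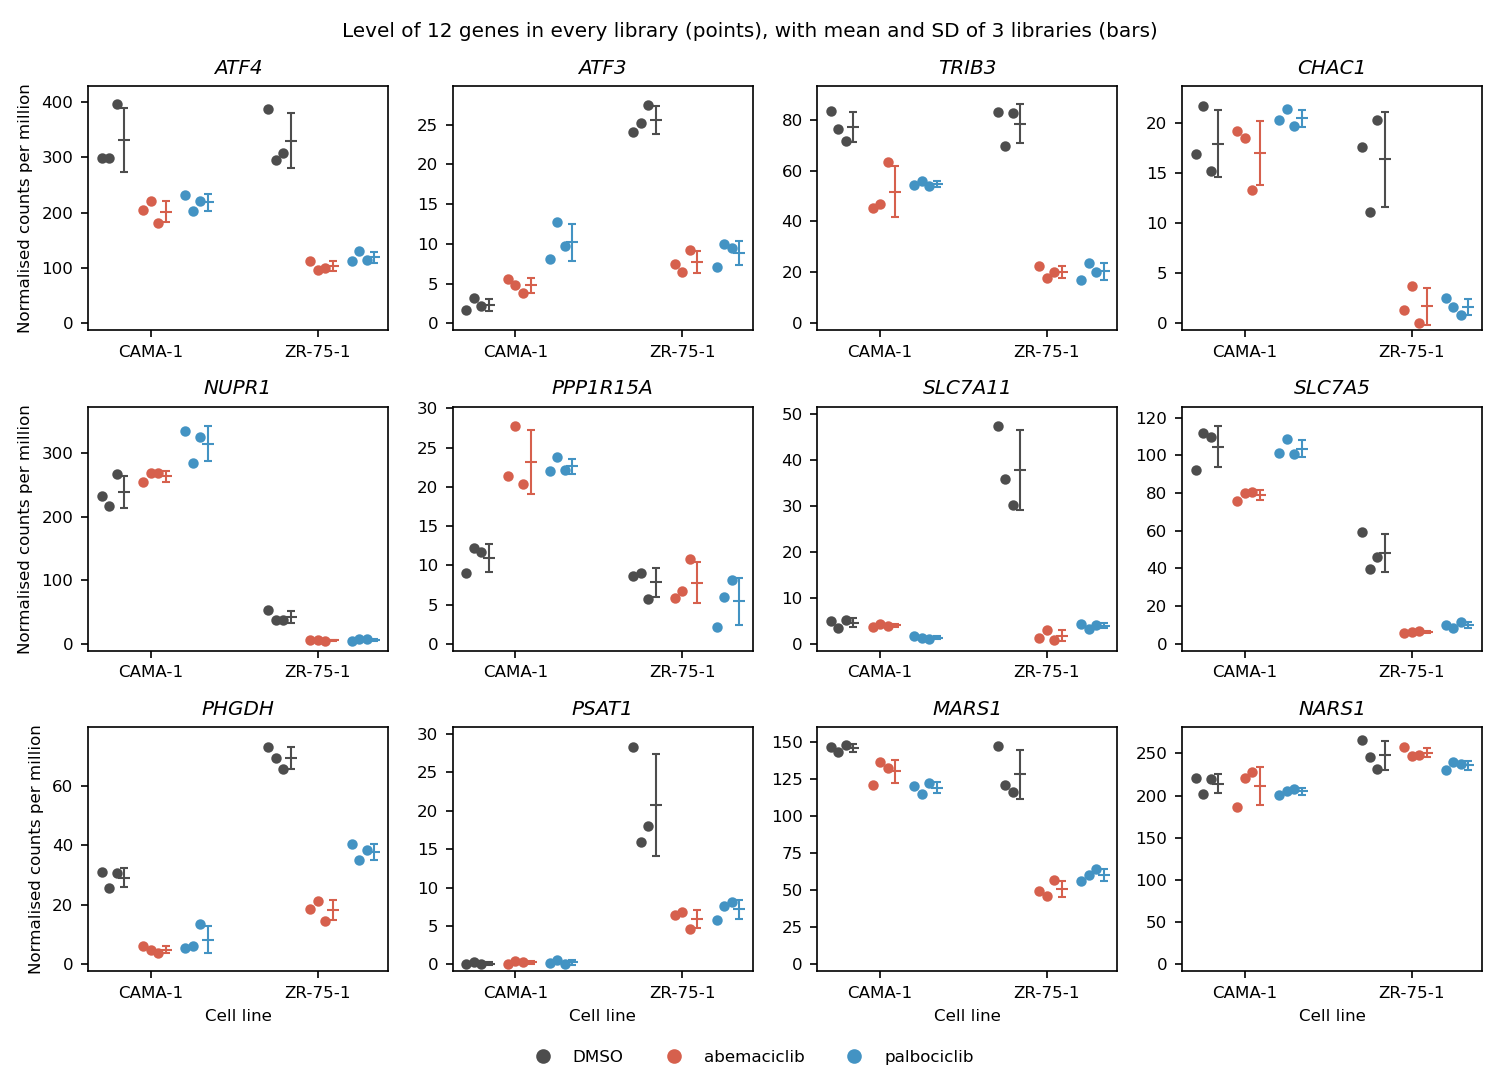
Normalised CPM (vertical axes, linear, separate for each gene and scaled within each line) of 12 genes in each of the 18 libraries, with the mean and SD of 3 libraries beside each group. ATF4, TRIB3, CHAC1, SLC7A5 and MARS1 drop further in ZR-75-1 than in CAMA-1, ATF3 moves up in CAMA-1 and down in ZR-75-1, and NARS1 stays level in both.

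Falls among the synthesis genes were called in both lines. With abemaciclib and with palbociclib, 4 of the 5 tested in CAMA-1 and 5 of the 7 tested in ZR-75-1 were lower and none was higher. Beside these, 20.1% and 18.7% of all genes were lower in CAMA-1 with abemaciclib and palbociclib, and 18.3% and 13.4% in ZR-75-1. PHGDH catalyses the first step of serine synthesis (ENSG00000092621.13, chr1:119648411-119744218, plus strand). It stood in CAMA-1 at 31.2, 25.6 and 30.6 with DMSO, 6.14, 4.85 and 3.81 with abemaciclib and 5.38, 6.08 and 13.5 with palbociclib. ZR-75-1 held 73.2, 69.5 and 65.7, 18.8, 21.3 and 14.7 and 40.3, 35.04 and 38.4 in that order. Drug and DMSO libraries did not overlap, and in CAMA-1 the fall was 5.81-fold with abemaciclib and 3.64-fold with palbociclib, from a spread among the palbociclib libraries wider than in any other group. In ZR-75-1 it was 3.78-fold and 1.83-fold.

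PSAT1, the next enzyme of the serine pathway, was detected in ZR-75-1 but hardly in CAMA-1. It stood in ZR-75-1 at 28.2, 16.0 and 18.0 with DMSO, 6.47, 6.77 and 4.63 with abemaciclib and 5.76, 7.60 and 8.09 with palbociclib, a fall of 3.43-fold and 2.90-fold (adjusted p = 7.20e-07 and 8.08e-06). CAMA-1 libraries held 0, 1 and 0 reads with DMSO, 0, 1 and 1 with abemaciclib and 1, 2 and 0 with palbociclib, too few to test. With DMSO its level was at least 23.9-fold higher in ZR-75-1 than in CAMA-1, taking 3 reads a library as the floor. PSPH, which completes serine, did not pass in any comparison, with log2 fold changes between -0.48 and 0.07.

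The mitochondrial folate enzymes SHMT2 and MTHFD2, which turn serine into one-carbon units, fell in all 4 comparisons. MTHFD2 stood in CAMA-1 at 162, 155 and 164 with DMSO, 86.5, 93.9 and 74.3 with abemaciclib and 90.7, 92.4 and 96.4 with palbociclib, and in ZR-75-1 at 190.0, 154 and 175, 80.6, 79.9 and 78.3 and 109, 127 and 119. It fell in CAMA-1 by 1.90-fold and 1.72-fold, and in ZR-75-1 by 2.17-fold and 1.46-fold, with no overlap between drug and DMSO libraries. SHMT2 gave log2 fold changes from -0.97 in CAMA-1 with abemaciclib to -0.57 in ZR-75-1 with palbociclib.

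PCK2, the mitochondrial enzyme that makes phosphoenolpyruvate, stood in ZR-75-1 at 54.6, 52.4 and 48.4 with DMSO, 23.9, 16.6 and 20.1 with abemaciclib and 23.3, 23.5 and 32.9 with palbociclib. CAMA-1 held 15.6, 19.3 and 22.8, 13.1, 8.38 and 11.1 and 16.1, 11.0 and 10.1. PCK2 fell by 2.56-fold and 1.95-fold in ZR-75-1, where drug and DMSO libraries did not overlap. In CAMA-1, where the palbociclib and DMSO libraries overlapped, the log2 fold changes were -0.80 ± 0.24 and -0.62 ± 0.23 (adjusted p = 0.00586 and 0.0284). The call with palbociclib was lost without DMSO replicate 2 or 3 or palbociclib replicate 2 or 3 (adjusted p = 0.0515, 0.168, 0.106 and 0.119) and under DESeq2, and that with abemaciclib without DMSO replicate 3 (adjusted p = 0.0510).

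The remaining synthesis genes could be read poorly or not at all. ASNS, the asparagine synthetase that serves as a standard readout of ATF4, had 0 to 3 reads in every library and 27 in all 18. In the annotation nearly the whole of ASNS is also covered by a long non-coding RNA on the same strand, and whether reads were left unassigned for that reason was not tested. CBS had 2 reads in all and has a near-identical copy elsewhere in the assembly. ALDH1L2 had 4 reads and VLDLR, a lipoprotein receptor gene of the effector group, 62. CTH, which makes cysteine, was tested in ZR-75-1 only, where its changes of -0.72 ± 0.56 and 0.35 ± 0.49 did not pass (adjusted p = 0.342 and 0.655).

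All 7 transporter genes fell with abemaciclib in ZR-75-1, 5 of them at least 2-fold, and 5 fell with palbociclib. In CAMA-1 6 of 7 fell with each drug. The shares of all genes lower with abemaciclib and palbociclib were 18.3% and 13.4% in ZR-75-1 and 20.1% and 18.7% in CAMA-1. SLC7A11 is the cystine importer that feeds glutathione synthesis (ENSG00000151012.13, chr4:138164097-138242349, minus strand). It stood in ZR-75-1 at 47.2, 35.8 and 30.1 with DMSO, 1.29, 3.05 and 0.771 with abemaciclib and 4.39, 3.31 and 4.04 with palbociclib, or 89 to 147 reads a library with DMSO and 2 to 16 with a drug. The CAMA-1 levels were 4.98, 3.50 and 5.22 with DMSO, 3.74, 4.41 and 3.81 with abemaciclib and 1.71, 1.16 and 1.04 with palbociclib. Both drug groups of ZR-75-1 lay far below its DMSO group, with falls of 21.3-fold and 9.49-fold (adjusted p = 2.28e-17 and 6.47e-15), the first being the largest fold change of the set against DMSO. In CAMA-1 SLC7A11 fell with palbociclib (-1.76 ± 0.49, adjusted p = 0.00396), and its change with abemaciclib was -0.22 ± 0.42 (adjusted p = 0.711), on 3 to 22 reads a library.

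SLC7A5 encodes LAT1, the importer of leucine and other large neutral amino acids, and SLC3A2 encodes the heavy chain that pairs with it. SLC7A5 (ENSG00000103257.9, chr16:87830023-87869507, minus strand) stood in ZR-75-1 at 59.1, 39.4 and 46.1 with DMSO, 5.82, 6.43 and 6.94 with abemaciclib and 10.2, 8.26 and 11.6 with palbociclib. The CAMA-1 libraries held 92.0, 112 and 109.7, 75.8, 80.2 and 80.6 and 101, 109 and 101. It fell by 7.51-fold and 4.78-fold in ZR-75-1 (adjusted p = 1.26e-16 and 6.76e-14). In CAMA-1 it fell by 1.33-fold with abemaciclib (adjusted p = 8.45e-04) and gave -0.02 ± 0.10 with palbociclib, whose libraries overlapped those with DMSO.

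SLC3A2 stood in ZR-75-1 at 90.2, 82.2 and 94.5 with DMSO, 33.3, 36.9 and 40.5 with abemaciclib and 40.6, 38.7 and 39.6 with palbociclib, and in CAMA-1 at 164, 152 and 149, 129, 119 and 121 and 128, 117 and 124. It fell without overlap in all 4 comparisons, by 2.41-fold and 2.24-fold in ZR-75-1 and 1.25-fold and 1.26-fold in CAMA-1. SLC7A1, the arginine and lysine importer, followed the same order. Its levels in ZR-75-1 were 119, 114 and 119 with DMSO, 57.9, 40.6 and 45.9 with abemaciclib and 63.7, 62.8 and 52.0 with palbociclib. The CAMA-1 values were 76.1, 77.4 and 82.6, 61.4, 56.0 and 56.2 and 53.0, 55.9 and 51.6. The falls were 2.43-fold and 1.97-fold in ZR-75-1 and 1.36-fold and 1.47-fold in CAMA-1.

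SLC38A2, the sodium-coupled importer of small neutral amino acids, stood in ZR-75-1 at 92.1, 82.5 and 81.6 with DMSO, 34.0, 40.3 and 33.9 with abemaciclib and 42.8, 51.6 and 49.1 with palbociclib. CAMA-1 held 85.7, 80.9 and 87.1, 56.9, 58.2 and 57.1 and 58.9, 55.3 and 56.2, so that both drugs gave almost the same level there. It fell by 2.36-fold and 1.79-fold in ZR-75-1 and 1.48-fold and 1.49-fold in CAMA-1.

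The glutamine and neutral amino acid exchangers SLC1A5 and SLC1A4 fell more in CAMA-1, a difference between the lines that passed for SLC1A5 with both drugs and for SLC1A4 with palbociclib. SLC1A5, the glutamine importer ASCT2, stood in CAMA-1 at 211, 240.5 and 199.9 with DMSO, 90.0, 79.4 and 90.8 with abemaciclib and 123, 125 and 122 with palbociclib. The ZR-75-1 libraries held 353, 334 and 353, 246, 263 and 244 and 325, 310.1 and 328. In CAMA-1 it changed by -1.31 ± 0.09 and -0.81 ± 0.09 on the log2 scale, and in ZR-75-1 by -0.46 ± 0.07 with abemaciclib (adjusted p = 4.98e-07), with -0.11 ± 0.07 with palbociclib (adjusted p = 0.266).

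SLC1A4 stood in CAMA-1 at 36.9, 33.6 and 37.5 with DMSO, 21.9, 11.5 and 17.1 with abemaciclib and 20.04, 23.7 and 28.8 with palbociclib. The ZR-75-1 libraries held 182, 186 and 177, 104, 93.4 and 107 and 198, 168 and 168, where only the abemaciclib libraries lay apart. It fell in CAMA-1 with both drugs (-1.05 ± 0.18 and -0.59 ± 0.17) and in ZR-75-1 with abemaciclib (-0.84 ± 0.09), and gave -0.03 ± 0.08 with palbociclib there (adjusted p = 0.838). The palbociclib call in CAMA-1 was lost without palbociclib replicate 1 (adjusted p = 0.0638).

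Of the 13 synthetases, 10 fell with abemaciclib and 8 with palbociclib in ZR-75-1, beside 18.3% and 13.4% of all genes lower. In CAMA-1 3 fell and 1 rose with each drug, beside 40.3% and 37.1% of all genes called in either direction. MARS1, the methionyl-tRNA synthetase (ENSG00000166986.15, chr12:57475445-57517569, plus strand), fell most. It stood in ZR-75-1 at 147, 121 and 117 with DMSO, 49.5, 46.4 and 56.7 with abemaciclib and 56.0, 60.5 and 64.1 with palbociclib. The CAMA-1 values were 147, 143 and 148, 121, 137 and 133 and 120.2, 115 and 122. The fall in ZR-75-1 was 2.53-fold and 2.13-fold (adjusted p = 6.95e-15 and 4.10e-12), against 1.13-fold, not passed, and 1.23-fold in CAMA-1 (adjusted p = 0.108 and 0.00516). MARS1 shares sequence with DDIT3 on the opposite strand, as described above, and had 6149 reads in all against 384.

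AARS1, CARS1, GARS1, TARS1, YARS1, SARS1 and LARS1 also fell in ZR-75-1 with both drugs. Their log2 fold changes with abemaciclib ran from -0.92 ± 0.08 for AARS1 to -0.35 ± 0.11 for LARS1, and with palbociclib from -0.78 ± 0.08 for AARS1 and -0.78 ± 0.09 for TARS1 to -0.35 ± 0.09 for SARS1. EPRS1 and IARS1 passed with abemaciclib, falling by 1.20-fold and 1.34-fold, and not with palbociclib. These 2 calls and that of LARS1 were each lost on leaving out either of 2 libraries. Without DMSO replicate 1 the adjusted p was 0.0983 for EPRS1 and 0.116 for IARS1, without abemaciclib replicate 3 it was 0.0501 for EPRS1 and 0.0701 for LARS1, without abemaciclib replicate 1 it was 0.0764 for LARS1, and without abemaciclib replicate 2 it was 0.111 for IARS1. With palbociclib IARS1 (-0.27 ± 0.13) passed without DMSO replicate 2 or palbociclib replicate 2 (adjusted p = 0.0464 and 0.0208).

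NARS1 and VARS1 passed in no comparison with DMSO, with log2 fold changes between -0.12 and 0.09 and 95% intervals that lay between -0.34 and 0.40. The 7 synthetases whose promoters carried the ATF4 element included 6 that fell with abemaciclib in ZR-75-1 and NARS1, which did not pass (0.02 ± 0.08, adjusted p = 0.877). EPRS1, SARS1 and WARS1 had a window without the element, and of these EPRS1 and SARS1 fell.

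In CAMA-1 AARS1 and YARS1 fell with both drugs, by 1.39-fold and 1.56-fold with abemaciclib and 1.35-fold and 1.30-fold with palbociclib. WARS1, the interferon-responsive tryptophanyl-tRNA synthetase, fell there with abemaciclib (-0.56 ± 0.15, adjusted p = 0.00261), while its changes in ZR-75-1 were 0.09 ± 0.15 and 0.18 ± 0.14. With palbociclib in CAMA-1 WARS1 gave -0.34 ± 0.15 (adjusted p = 0.0614), which passed without DMSO replicate 3 (-0.50, adjusted p = 0.00685). LARS1 rose in CAMA-1 (0.22 ± 0.09 and 0.35 ± 0.08), where the call with abemaciclib (adjusted p = 0.0419) was lost without DMSO replicate 1 or 2 or abemaciclib replicate 1 or 3 (adjusted p = 0.138, 0.0670, 0.144 and 0.134). CARS1, EPRS1, GARS1, IARS1, SARS1 and TARS1 passed with neither drug in CAMA-1, with log2 fold changes from -0.19 for GARS1 to 0.04 for TARS1 with abemaciclib and from -0.24 for IARS1 to 0.11 for SARS1 with palbociclib. The changes of GARS1 passed without DMSO replicate 2 (adjusted p = 0.0237 and 0.0130), and that with palbociclib also without palbociclib replicate 2 (adjusted p = 0.0498). Those of IARS1 passed without DMSO replicate 3 (-0.35 and -0.45, adjusted p = 0.0258 and 0.00333).

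For comparison, 10 other cytosolic synthetase and synthetase-complex genes were read. In ZR-75-1, 1 of 10 fell and 1 rose with abemaciclib, with a median of -0.20 against -0.42 for the 13 synthetases of the set, and 2 fell and 1 rose with palbociclib. QARS1, the glutaminyl-tRNA synthetase, rose there by 1.53-fold with abemaciclib (adjusted p = 2.41e-06) and 1.29-fold with palbociclib. In CAMA-1 2 of 10 fell with abemaciclib and 3 with palbociclib, none rising, with FARSA, a subunit of the phenylalanyl enzyme, the largest fall (-0.41 and -0.41). The difference between the lists was not tested. Of 17 mitochondrial synthetases, 15 were tested in each line, and in ZR-75-1 2 fell and 3 rose with abemaciclib. Among all genes tested 36.2% and 27.9% were called in either direction with abemaciclib and palbociclib in ZR-75-1, and 40.3% and 37.1% in CAMA-1.

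**Figure D3:**
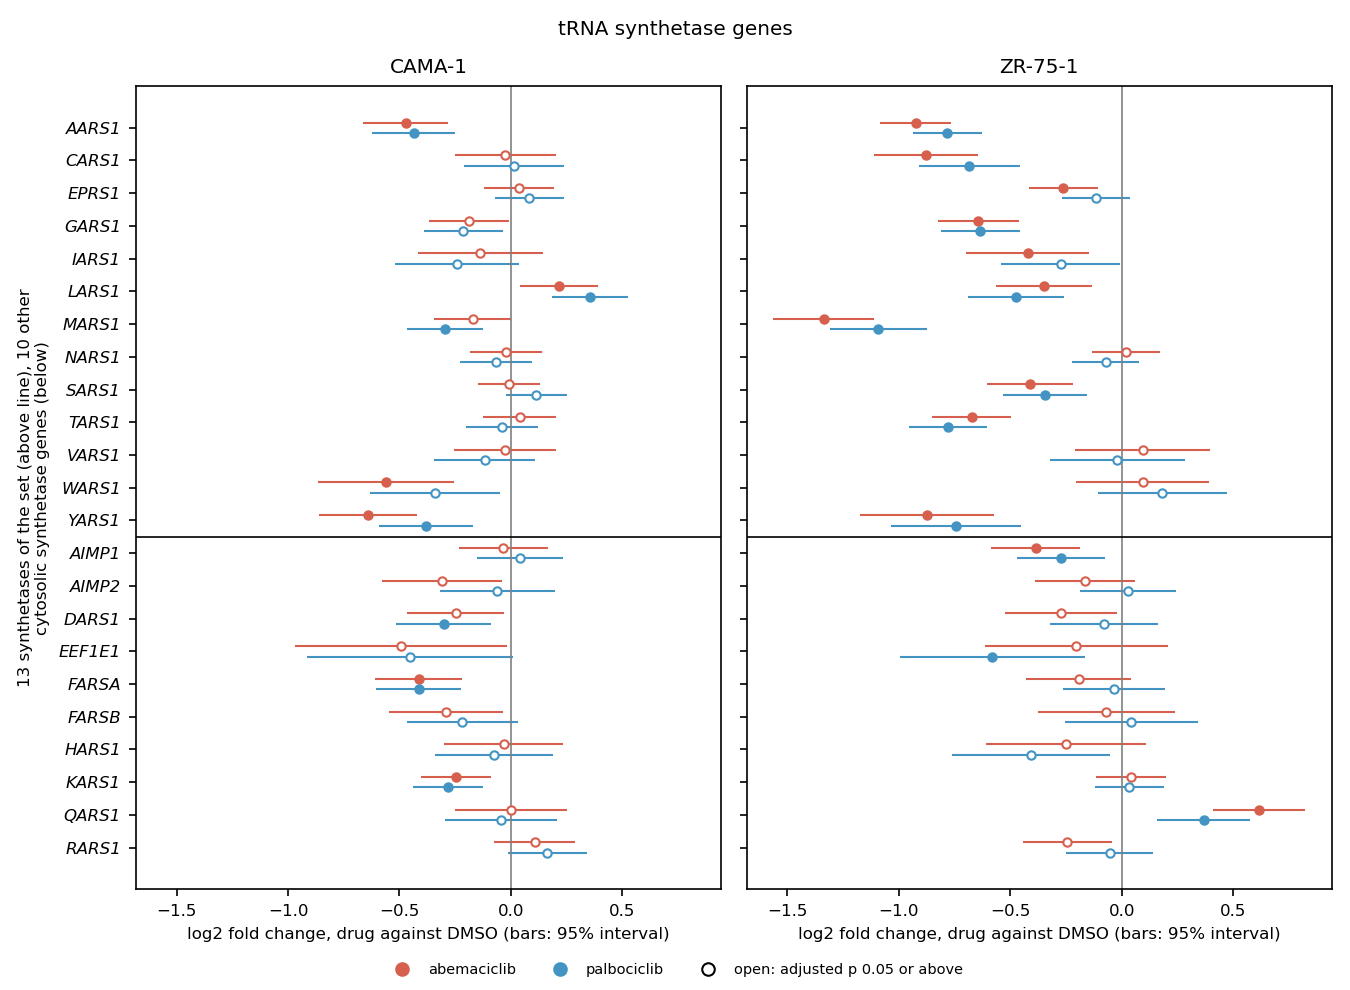
Log2 fold change against DMSO (horizontal axis) with 95% intervals for the 13 synthetases of the set (above the line) and 10 other cytosolic synthetase genes (below), in CAMA-1 (left) and ZR-75-1 (right). Filled points passed adjusted p under 0.05. In ZR-75-1 MARS1 lies farthest left, AARS1, CARS1, YARS1, TARS1 and GARS1 lie between -0.92 and -0.63, and NARS1 and VARS1 lie near 0. Below the line, AIMP1 at -0.39 and QARS1 at 0.62 passed there with abemaciclib.

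The difference in response between the lines was tested as an interaction in 1 fit of all 18 libraries. With abemaciclib 23 of the 39 genes tested differed, 21 of them with the lower value in ZR-75-1, beside 18.2% of all genes, of which 10% lower and 8.19% higher. With palbociclib 21 differed, 18 lower in ZR-75-1, beside 20.3%, of which 10.3% lower and 10% higher. The largest differences with abemaciclib (ZR-75-1 minus CAMA-1, log2) were -4.21 ± 0.55 for SLC7A11, -3.17 ± 0.48 for CHAC1, -3.15 ± 0.22 for NUPR1 and -2.81 ± 0.48 for ATF3. With palbociclib they were -3.69 ± 0.43 for ATF3, -3.48 ± 0.46 for CHAC1, -3.14 ± 0.21 for NUPR1 and -2.27 ± 0.20 for SLC7A5. ATF4 differed by -0.98 ± 0.14 and -0.89 ± 0.13 (adjusted p = 1.03e-07 and 4.46e-07).

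By role group, 8 of 13 synthetases, 5 of 6 feedback and effector genes and 5 of 7 transporter genes were lower in ZR-75-1 with abemaciclib. Among the 6 transcription factors, ATF4, ATF3 and CEBPG were lower. None of 7 synthesis genes was called in either direction, beside 18.2% of all genes in either direction and 10% lower. PSAT1 and CTH, counted among the 7, had too few reads in CAMA-1 to be tested there. A difference between the lines could therefore hardly be called for them. Among the others, the values for this difference were 0.59 ± 0.32 for PHGDH, 0.15 ± 0.20 for SHMT2 and -0.22 ± 0.14 for MTHFD2. PCK2, which fell further in ZR-75-1 than in CAMA-1 in the fits within a line, and PSPH were not called either. SLC1A5 differed the other way, by 0.82 ± 0.11 with abemaciclib and 0.67 ± 0.11 with palbociclib, as did WARS1 with abemaciclib (0.63 ± 0.21) and PHGDH and SLC1A4 with palbociclib (0.98 ± 0.27 and 0.54 ± 0.18).

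The 5 proliferation genes checked beside the set, MKI67 among them, did not follow this order with both drugs. MKI67 fell more in ZR-75-1 than in CAMA-1 with abemaciclib (-2.64 ± 0.20) and less with palbociclib (1.02 ± 0.13, adjusted p = 5.06e-09), while 18 genes of the set had the lower value in ZR-75-1 with palbociclib too. The part of the proliferation change in the set's change was not tested.

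Several of the smaller differences lost their call when 1 library was left out, while keeping their sign. The abemaciclib difference of PPP1R15A (-1.11 ± 0.40, adjusted p = 0.0426) was lost in 10 of 12 fits that each left out 1 library, with only those leaving out ZR-75-1 DMSO replicate 3 and abemaciclib replicate 3 keeping it, and reached adjusted p = 0.157 without ZR-75-1 abemaciclib replicate 1. Its value in those 10 fits ran from -1.16 to -0.88. That of EPRS1 was lost in 7 of 12 (up to 0.228 without CAMA-1 DMSO replicate 2), that of WARS1 in 4 (up to 0.0984 without CAMA-1 abemaciclib replicate 1) and that of AARS1 without CAMA-1 DMSO replicate 2 (0.0548) or abemaciclib replicate 2 (0.0631). That of GARS1 was lost without CAMA-1 DMSO replicate 2 (0.0635) and that of CEBPG without ZR-75-1 abemaciclib replicate 1 (0.0590). The palbociclib difference of SLC7A1 was lost in 9 of 12 (values from -0.44 to -0.32, adjusted p up to 0.177 without ZR-75-1 palbociclib replicate 3), that of AARS1 in 6 (up to 0.151 without CAMA-1 DMSO replicate 2), that of SLC1A4 without CAMA-1 or ZR-75-1 palbociclib replicate 1 (0.0943 and 0.0617), that of PHGDH without CAMA-1 palbociclib replicate 1 (0.0573) and that of GARS1 without CAMA-1 DMSO replicate 2 (0.0648). Without CAMA-1 palbociclib replicate 3 the difference of PHGDH grew from 0.98 to 1.49 (adjusted p = 5.13e-05). Calls with palbociclib were gained for DDIT4 (-0.88, adjusted p = 0.0551) without CAMA-1 palbociclib replicate 2, ZR-75-1 DMSO replicate 2 or ZR-75-1 palbociclib replicate 1 (0.0295, 0.0437 and 0.0265), and for WARS1 (0.49, adjusted p = 0.0787) without CAMA-1 DMSO replicate 3 or ZR-75-1 palbociclib replicate 1 (0.0137 and 0.0347).

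**Figure D4:**
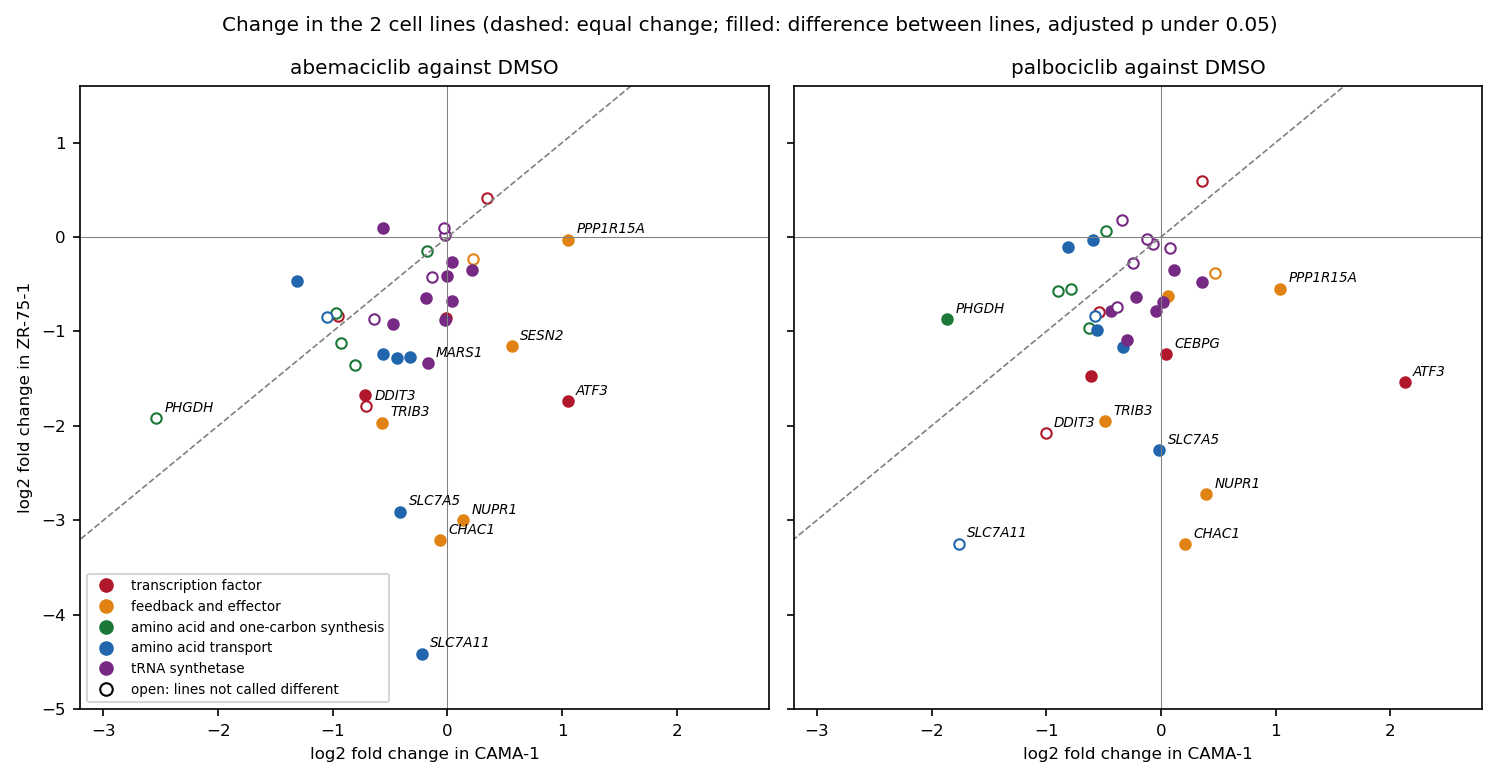
Log2 fold change against DMSO in CAMA-1 (horizontal axis) and ZR-75-1 (vertical axis) for the 37 genes tested in both lines, with abemaciclib (left) and palbociclib (right), coloured by role. The dashed line marks equal change and filled points are genes whose change differed between the lines at adjusted p under 0.05. Most points lie below the dashed line, with SLC7A11, CHAC1, NUPR1 and SLC7A5 lowest. No green synthesis gene is filled with abemaciclib, and with palbociclib PHGDH is filled and lies above the line.

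The 2 inhibitors were compared directly at the same dose and time. In CAMA-1 3 of 37 genes differed, beside 2.33% of all genes, of which 0.796% higher and 1.53% lower with abemaciclib, and 17.8% of all genes had drug groups that did not overlap. SESN2 was higher with abemaciclib than with palbociclib (0.50 ± 0.13, adjusted p = 0.0271), and SLC7A5 and SLC1A5 were lower (-0.40 ± 0.10 and -0.50 ± 0.09, adjusted p = 0.0172 and 5.64e-04). SESN2 lost its call without any 1 of the 3 abemaciclib libraries or palbociclib replicate 1 or 3 (adjusted p from 0.0657 to 0.291), and SLC7A5 without any 1 of the 3 abemaciclib libraries or palbociclib replicate 1 or 2 (adjusted p from 0.0534 to 0.111). SLC1A5 kept its call in all of these, and NUPR1 (-0.26 ± 0.08, adjusted p = 0.0723) gained one without palbociclib replicate 2 (adjusted p = 0.0325).

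In ZR-75-1 6 of 39 genes differed, all lower with abemaciclib, beside 13.2% of all genes, of which 7.94% lower and 5.23% higher, and 27.6% of all genes had drug groups that did not overlap. They were PHGDH (-1.05 ± 0.16), SLC1A4 (-0.81 ± 0.09), MTHFD2 (-0.57 ± 0.10), SESN2 (-0.53 ± 0.12), SLC38A2 (-0.40 ± 0.13) and SLC1A5 (-0.35 ± 0.07). SLC38A2 (adjusted p = 0.0332) lost its call without abemaciclib replicate 1 or 3 or palbociclib replicate 2 or 3 (adjusted p = 0.137, 0.135, 0.155 and 0.0980). MKI67 differed far more between the drugs in ZR-75-1 (-4.52 ± 0.14).

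Most of the strongly falling genes gave no detectable difference between the drugs in ZR-75-1, with intervals that still allow one. The 95% interval of the log2 difference was -0.37 to 0.34 for TRIB3, -0.91 to 0.36 for NUPR1, -1.21 to 1.30 for CHAC1, -0.40 to -0.01 for ATF4 and -2.07 to -0.26 for SLC7A11. The intervals of ATF4 and SLC7A11 lay below 0 but neither passed the adjustment over all genes (adjusted p = 0.178 and 0.0800). SLC7A11 passed without abemaciclib replicate 2, where its difference moved from -1.17 to -1.85 (adjusted p = 0.0234), and SLC7A1 without abemaciclib replicate 1, where it moved from -0.30 to -0.46 (adjusted p = 0.0238). No synthetase differed between the drugs in either line, and for NARS1, TARS1 and GARS1 the interval in ZR-75-1 stayed within 0.29 of 0. The drug difference itself differed between the lines for 2 of 39 genes, beside 2.8% of all genes (1.03% higher and 1.77% lower), namely SESN2 (-1.03 ± 0.18, adjusted p = 7.63e-05) and SLC7A11 (-2.70 ± 0.66, adjusted p = 0.00836). MTHFD2 (-0.43, adjusted p = 0.0866) joined them without CAMA-1 abemaciclib replicate 3 (adjusted p = 0.0482).

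With DMSO 26 of 39 genes differed between the lines, 18 higher and 8 lower in ZR-75-1, beside 61.3% of all genes, of which 31.5% higher and 29.8% lower, and 64.4% of all genes had DMSO groups that did not overlap. Higher in ZR-75-1 were ATF3 (3.54 ± 0.31), SLC7A11 (3.10 ± 0.28), DDIT3 (2.43 ± 0.34), SLC1A4 (2.41 ± 0.12), PCK2 (1.495 ± 0.179), SESN2 (1.47 ± 0.12), PHGDH and SHMT2 (1.33 ± 0.16 and 1.33 ± 0.13) and AARS1 (1.14 ± 0.08), apart from PSAT1 given above. SLC1A5, SLC7A1, ATF5, EPRS1, CARS1, TARS1, NARS1 and GARS1 were higher by 0.76, 0.66, 0.62, 0.62, 0.50, 0.33, 0.29 and 0.21. Without CAMA-1 DMSO replicate 2 the difference of NARS1 was 0.19 (adjusted p = 0.0488) and that of GARS1 was 0.08 and lost its call (adjusted p = 0.485). GARS1 also lost its call without CAMA-1 replicate 1 or ZR-75-1 replicate 1 or 2 (adjusted p = 0.113, 0.197 and 0.0896). Lower in ZR-75-1 were NUPR1 (-2.41 ± 0.11), SARS1 (-1.39 ± 0.08), VARS1 (-1.26 ± 0.13), SLC7A5 (-1.04 ± 0.12), YARS1 (-0.96 ± 0.12), SLC3A2 (-0.72 ± 0.09), DDIT4 (-0.69 ± 0.24) and LARS1 (-0.28 ± 0.10). The other 13 did not pass, with differences from -0.40 for PPP1R15A to 0.94 for CTH. Of these, WARS1 passed without CAMA-1 replicate 3 (adjusted p = 0.0123) and MTHFD2 without ZR-75-1 replicate 2 (adjusted p = 0.0485). Among the genes that fell more in ZR-75-1, CHAC1, TRIB3, CEBPG and MARS1 were not called different with DMSO, at -0.04, 0.11, 0.08 and -0.11 with adjusted p between 0.330 and 0.896.

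Genes around the programme were read from lists chosen with it. Of 15 genes for the eIF2 kinases, eIF2, eIF2B and their regulators, 2 rose and 2 fell in ZR-75-1 with abemaciclib and 1 and 1 with palbociclib, with medians of 0.10 and 0.09. In CAMA-1 4 rose and 2 fell with abemaciclib and 2 rose and 1 fell with palbociclib, led upward by IMPACT, an inhibitor of GCN2 activation (0.83 ± 0.14 and 0.85 ± 0.14). Of 15 further ATF4 targets, 13 were tested in ZR-75-1, where 8 fell and 1 rose with abemaciclib and 7 fell and 2 rose with palbociclib. JDP2, a repressor of AP-1 sites, fell most (-3.06 ± 0.38 and -2.47 ± 0.34). In CAMA-1 3 of the 12 tested fell and 1 rose with each drug, JDP2 being the largest rise with abemaciclib (0.48 ± 0.12). For scale, abemaciclib moved 36.2% of all genes tested in ZR-75-1 past the threshold and palbociclib 27.9%, falls alone making up 18.3% and 13.4%. The CAMA-1 figures, in that order of drugs, came to 40.3% and 37.1%, with falls at 20.1% and 18.7%. The difference between either list and all genes was not tested.

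Of 12 endoplasmic reticulum stress genes driven by XBP1 and ATF6, 7 rose and none fell in ZR-75-1 with abemaciclib and 6 rose and none fell with palbociclib, beside the 17.9% and 14.5% of all genes higher, with CRELD2 the largest rise (0.78 ± 0.11 and 0.99 ± 0.11). In CAMA-1 5 of 12 rose and 1 fell with each drug, beside 20.3% and 18.4% of all genes higher and 20.1% and 18.7% lower. Of 10 targets of the oxidative stress factor NRF2, which also drives SLC7A11, 9 were tested in ZR-75-1, where 2 rose and 1 fell with abemaciclib and 4 rose and none fell with palbociclib. In CAMA-1 1 of 8 rose and 5 fell with abemaciclib, and 2 rose and 4 fell with palbociclib. The shares of all genes lower in ZR-75-1 were 18.3% with abemaciclib and 13.4% with palbociclib.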

How the data were processed

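Per the labels and the study's methods, the authors trimmed reads from Lexogen 3′ mRNA libraries with BBDuk, aligned them to hg38 with STAR 2.7.5b and counted them per GENCODE gene with featureCounts 2.0.1, and deposited raw read counts of 60656 genes for 18 libraries. The labels and the methods name different versions of the library kit, and strand and multimapping settings of the counting are not given in the sources used here, so genes that overlap on opposite strands are uncertain. A 3′ library gives about 1 read position per transcript, so counts do not scale with gene length.

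Samples were grouped by the cell line and treatment in the labels. The members and the lists were chosen with earlier results of these data known. Genes were kept by filterByExpr with its default settings and tested with edgeR 4.0.16 (TMM scaling, quasi-likelihood F test) in R 4.3.3, with 1 fit of 9 libraries per line for comparisons within a line and 1 fit of all 18 for differences between lines. P-values were adjusted by Benjamini-Hochberg over all genes tested, with a threshold of 0.05. The fits were tested on simulated data first. The biological coefficient of variation was 8.12% in CAMA-1 and 8.30% in ZR-75-1. Each gene of the set was accounted for against DMSO and between the lines with DMSO, and in the other comparisons those called were named. Values in every library were given for those called with at least a 2-fold change in a comparison within a line (with NARS1 added to the plot as a gene that did not pass), and of the other lists the called genes with the largest rise and fall could be named. MKI67 was named as a check. The study describes the 3 libraries of a group as separate cultures.

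Alternatives were RLE and upper-quartile scaling, no filter on low counts, mitochondrially encoded genes left out, DESeq2 1.42.0, the replicate number as a block, each library left out in turn and, for comparisons within a line, 1 fit over all libraries. Gene spans are from GENCODE on GRCh38 and promoter sequences from RefSeq on GRCh38.p14.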

Additional observations from a re-analysis of the deposited data

Results flagged for a closer look

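The response to a drug differed between the 2 lines for 23 genes of the set with abemaciclib and 21 with palbociclib, by the interaction term of the 18-library edgeR fit (adjusted p under 0.05 over all genes). Values are log2 fold changes in ZR-75-1 minus those in CAMA-1, so a negative value is a lower response in ZR-75-1. With abemaciclib, transcription factors differed by -0.98 for ATF4, -2.81 for ATF3 and -0.87 for CEBPG. Feedback and effector genes differed by -1.42 for TRIB3, -3.17 for CHAC1, -1.74 for SESN2, -1.11 for PPP1R15A and -3.15 for NUPR1. Transporter genes differed by -4.21 for SLC7A11, -2.52 for SLC7A5, -0.97 for SLC3A2, -0.86 for SLC7A1, -0.70 for SLC38A2 and 0.82 for SLC1A5. Synthetases differed by -0.48 for AARS1, -0.88 for CARS1, -0.32 for EPRS1, -0.48 for GARS1, -0.59 for LARS1, -1.19 for MARS1, -0.43 for SARS1, -0.74 for TARS1 and 0.63 for WARS1.

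With palbociclib the transcription factors differed by -0.89 for ATF4, -3.69 for ATF3 and -1.32 for CEBPG. The feedback and effector genes differed by -1.49 for TRIB3, -3.48 for CHAC1, -0.71 for SESN2, -1.62 for PPP1R15A and -3.14 for NUPR1, and the synthesis gene PHGDH by 0.98. The transporter genes differed by -2.27 for SLC7A5, -0.86 for SLC3A2, -0.45 for SLC7A1, 0.67 for SLC1A5 and 0.54 for SLC1A4. The synthetases differed by -0.37 for AARS1, -0.73 for CARS1, -0.45 for GARS1, -0.86 for LARS1, -0.82 for MARS1, -0.49 for SARS1 and -0.77 for TARS1. The difference between abemaciclib and palbociclib differed between the lines for SESN2 (-1.03) and SLC7A11 (-2.70).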

How the results depend on the processing

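Across the alternatives other than leaving out a library, 2491 of 2522 values of single genes kept their direction and their side of the threshold, 24 kept the direction and lost the call, 7 gained one and 0 reversed. The counts of called genes stayed at 32 and 28 for abemaciclib and palbociclib against DMSO in ZR-75-1 and ran from 18 to 21 and from 19 to 21 in CAMA-1. Against DMSO the calls lost in CAMA-1, apart from the replicate block given below, were ATF3 and LARS1 with abemaciclib under DESeq2 and with no filter on low counts, and PCK2 with palbociclib under DESeq2. Between the drugs SESN2 in CAMA-1 was lost under DESeq2, and SLC38A2 in ZR-75-1 under DESeq2, upper-quartile scaling and no filter. Between the lines EPRS1 and PPP1R15A with abemaciclib and SLC7A1 with palbociclib were lost under DESeq2, with no filter and without mitochondrially encoded genes, EPRS1 also under RLE scaling, and WARS1 with abemaciclib and GARS1 with DMSO with no filter. The number of genes whose drug difference differed between the lines went from 2 to 1 under DESeq2, which gave SLC7A11 no adjusted p. No scaling moved the median of all genes by more than 0.1. Leaving out 1 library at a time gave 18 to 20 and 19 to 21 called genes for the drugs against DMSO in CAMA-1, 30 to 32 and 28 to 29 in ZR-75-1, 1 to 3 between the drugs in CAMA-1 and 5 to 7 in ZR-75-1, 18 to 23, 17 to 22 and 2 to 3 for the differences between lines with abemaciclib, palbociclib and between the drugs, and 25 to 27 between the lines with DMSO. The count between the drugs in CAMA-1 fell to 1 without any 1 of the 3 abemaciclib libraries or palbociclib replicate 1. Low counts limit ASNS, CBS, ALDH1L2 and VLDLR in both lines and PSAT1 and CTH in CAMA-1, and the reason for the low counts was not tested.

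No pairing by replicate number was detected, as the deviations of same-numbered libraries correlated between -0.0777 and 0.0122. Counting noise in genes with few reads draws such correlations towards 0, so they cannot show that same-numbered cultures were handled apart. With the replicate number as a block, 32 and 28 genes were called in ZR-75-1 and 19 and 20 in CAMA-1 against DMSO, and 24 between the lines with DMSO. The block took the calls of LARS1 with abemaciclib in CAMA-1 and of GARS1 and DDIT4 between the lines with DMSO, and added 0.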
